A study of Mus musculus with 8 samples.

Results

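The Hox genes examined were the 39 protein genes of the Hoxa, Hoxb, Hoxc and Hoxd clusters, taken by symbol from a table of 31010 mouse genes. The Hoxa cluster held 11 of them, the Hoxb cluster 10, and the Hoxc and Hoxd clusters 9 each. They were measured by RNA-seq in 8 germline stem (GS) cell lines. GS cells are cultured spermatogonia enriched for spermatogonial stem cells, which self-renew with the growth factors GDNF and FGF2. The paper also names the compound MHY1485 for self-renewal of its B6 donor GS cells. Its use for these 8 lines is not stated.

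All 8 lines were described as wild-type, carried the prefix B6 in their names and came from first-generation mice. The paper calls the sperm used for ICSI wild-type, but it came from green mice, which carry an Egfp transgene. Whether any line carried this transgene is not stated. The 4 control-F1 lines (29, 37, 44 and 45) came from mice born after natural mating, with no treatment. The 4 ICSI-F1 lines (11, 17, 20 and 21) were derived from mice conceived by ICSI (intracytoplasmic sperm injection), the placement of 1 sperm directly into the oocyte. No sample label ties a line to its own mouse or litter. The paper's supplement lists tail DNA of F1 mice under these same numbers, which points to a separate mouse for each line. The litters are not known here. In all that follows n counts lines, and each p-value measures the spread between lines. The sample names were written in 2 styles, called name sets here. Set 1 comprised lines 29, 37 (control), 11 and 17 (ICSI), and set 2 lines 44, 45 (control), 20 and 21 (ICSI). The processing notes list other versions of the trimming, alignment and counting programs for each set. Fewer reads were counted in genes in each set 1 library (24695054 to 26649655) than in each set 2 library (32349664 to 44265148). These counts were recovered from the deposited values, and the paper lists more sequenced reads for each library. The sets, these versions and this depth cannot be told apart.

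Hox proteins are homeodomain transcription factors that give embryonic cells their position along the head-to-tail axis. The genes of a cluster lie in numerical order on the chromosome, low numbers acting toward the head and high numbers toward the tail, and neighbors are often switched on together. Polycomb proteins keep the clusters silent where they are not used, and Trithorax proteins such as Kmt2a keep them active. Fibroblasts keep a Hox expression pattern of the body site they came from, and GS cells are grown on embryonic fibroblasts, which were reduced by plating on gelatin before RNA was collected.

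The Hoxb cluster, to which most of the values below belong, lies on chromosome 11 with all 10 genes on the plus strand. Hoxb2 to Hoxb9 occupied 82.6 kb there, with gaps of 1.31 to 12.1 kb between neighbors, while Hoxb13 lay 74.0 kb beyond Hoxb9. RefSeq promoter sequences (GRCm38.p6) were at hand for 22 of the 39 genes and for 3 of the Hoxb genes. Their 250 bases before the start site are shown to set 2 genes that varied together across the lines, Hoxb8 and Hoxb4, beside Hoxb1, the least abundant gene of the cluster. They lie at chr11:96281655-96281904, chr11:96318017-96318266 and chr11:96365508-96365757. Capitals mark the motif TTTATNG, bound by Cdx and posterior Hox proteins, and the TATA box TATAAA, both searched on either strand. The 2 motifs overlap where the TATA box is read from the opposite strand.
Hoxb8: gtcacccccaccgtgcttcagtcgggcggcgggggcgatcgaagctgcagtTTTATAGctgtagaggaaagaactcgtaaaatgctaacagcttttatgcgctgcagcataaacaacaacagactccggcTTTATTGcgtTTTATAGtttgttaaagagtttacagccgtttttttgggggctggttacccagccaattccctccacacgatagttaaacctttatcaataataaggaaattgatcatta
Hoxb4: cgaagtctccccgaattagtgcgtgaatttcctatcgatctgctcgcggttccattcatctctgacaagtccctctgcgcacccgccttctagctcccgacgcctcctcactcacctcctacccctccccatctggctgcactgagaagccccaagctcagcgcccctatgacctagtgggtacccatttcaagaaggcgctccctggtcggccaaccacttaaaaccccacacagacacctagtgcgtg
Hoxb1: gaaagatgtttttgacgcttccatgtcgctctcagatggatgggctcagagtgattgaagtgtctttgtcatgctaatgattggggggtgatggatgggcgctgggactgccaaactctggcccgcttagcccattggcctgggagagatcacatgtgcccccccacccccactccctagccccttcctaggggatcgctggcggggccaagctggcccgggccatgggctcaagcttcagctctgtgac

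The Hoxb8 promoter held TTTATNG 3 times, the Hoxb4 and Hoxb1 promoters 0 times. It was found in 9.81% of all 32851 promoters of this length and in 2 of 24 Hox promoters. The TATA box occurred in 12.4% of all promoters and in 4 of 24 Hox promoters, Hoxb8 among them. The CCAAT box was in 33.8% of all and 14 of 24 Hox promoters, the GC box GGGCGG in 32.7% and 10 of 24, and the Pbx-Hox motif TGATTNAT in 2.82% and 2 of 24. The Hoxb8 promoter contained 12 CpG dinucleotides, that of Hoxb4 14 and that of Hoxb1 7, against a median of 6 over all promoters and 12.5 over those of Hox genes. These matches describe letters only and say nothing of binding in GS cells.

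Levels are given in FPKM, fragments per kilobase of gene scaled to library size, so that genes of different length can be set side by side. Between 24695054 and 44265148 reads per library were counted in genes. A single read amounted to 0.0227 to 0.0401 FPKM for a gene 1 kb long. Intervals and limits drawn from reads cover counting error only. The germ cell genes Ddx4 and Dazl were at 173 to 274 and 257 to 420 FPKM, so the lines carried the RNA of germ cells. Of the Sertoli cell markers, Amh and Fshr were at or near 0, with 15 and 1 reads in all libraries together, but Sox9 (0.832 to 5.46 FPKM), Wt1 (0.929 to 3.31), Inhbb (0.716 to 4.05) and Clu (1.24 to 2.99) were at levels like those of several Hoxb genes. Markers of fibroblasts were present in every line, and the sum of 25 of them ran from 286 to 1286 FPKM. It was highest in control lines 29 (1286) and 44 (1067).

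Expression was concentrated in the Hoxb cluster. Of the 39 genes, 9 had a mean of at least 1 FPKM over the 8 lines, and all 9 were Hoxb genes. Another 20 had a mean between 0.1 and 1 FPKM and 10 were below 0.1 FPKM. The mean of the Hoxb genes ran from 0.703 to 11.3 FPKM with a median of 3.22, whereas the medians were 0.206 for Hoxa, 0.333 for Hoxc and 0.107 for Hoxd. Hoxb genes made up 69.6% to 88.3% of the summed Hox FPKM of a line. The summed level was 41.6 FPKM for Hoxb, 4.04 for Hoxc, 2.67 for Hoxa and 2.09 for Hoxd, as means of 8 lines, and Hoxb was highest in each line.

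**Figure D1:**
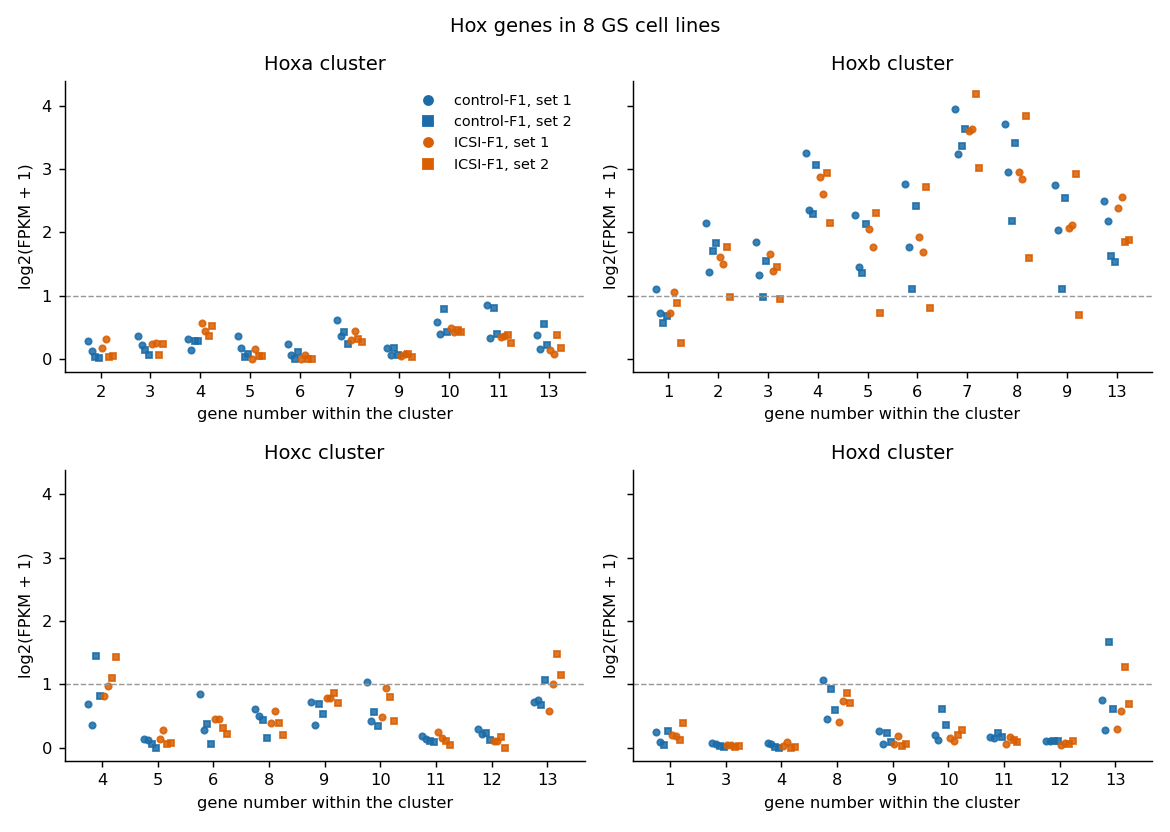
Level of 38 of the 39 Hox genes in each line as log2(FPKM + 1), with 1 panel per cluster and the genes in numerical order. Blue points are control-F1 and orange ICSI-F1 lines, circles are set 1 and squares set 2, and the dashed line marks 1 FPKM; only in the Hoxb panel do the points of most genes lie above it, up to 17.1 FPKM for Hoxb7 in ICSI line 20.

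The same held within groups of paralogs, genes that share a number across clusters. The Hoxb member carried 97.5% of the summed FPKM of group 7, 95.8% of group 2, 94.1% of group 5, 90.7% of group 3 and 89.9% of group 6. It carried 81.3% to 88.4% in groups 4, 8 and 9. The shares were lowest in group 13 (63.1%) and group 1 (47.3%). Groups 10 to 12 have no Hoxb member, and their summed means were 1.18, 0.598 and 0.176 FPKM.

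Among the 9 Hoxb genes the order of mean levels was Hoxb7, Hoxb8, Hoxb4, Hoxb9, Hoxb13, Hoxb6, Hoxb5, Hoxb2 and Hoxb3. Hoxb7 stood at percentile 58.5 of the 12000 genes whose mean reached 1 FPKM, and Hoxb3 at percentile 9.13. Hoxb7 exceeded Hoxb8 in 8 of 8 lines, by 0.75 ± 0.59 on the log2 scale (SD, n = 8), and Hoxb4 exceeded Hoxb9 in 8 of 8, by 0.93 ± 0.81. All other neighbors in the order changed places in at least 1 line, and their differences were smaller than the SD between lines. Hoxb9 exceeded Hoxb13 in 3 of 8 lines although its mean was higher.

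Values by line follow, always for control lines 29, 37, 44 and 45 and then ICSI lines 11, 17, 20 and 21. The anterior genes come first. Hoxb2, which acts in the hindbrain, was at 3.44, 1.59, 2.26 and 2.55 FPKM in the control and 2.06, 1.83, 2.42 and 0.973 in the ICSI lines. Hoxb3, also a hindbrain gene, was at 2.61, 1.50, 0.977 and 1.92 FPKM and at 2.14, 1.61, 1.72 and 0.921. For both genes control line 29 was highest and ICSI line 21 lowest, and the groups overlapped. The antisense transcript Hoxb3os covers 52.9% of the exonic bases of Hoxb3 and 27.3% of those of Hoxb2. Whether the reads kept their strand is uncertain, so part of these 2 values may be antisense RNA.

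Hoxb4, known for expanding blood stem cells when overexpressed, was at 8.57, 4.09, 3.90 and 7.32 FPKM in control and, in ICSI lines, at 6.33, 5.09, 6.63 and 3.43 FPKM. Hoxb5, a gene of the enteric neural crest, was at 3.85, 1.73, 1.57 and 3.37 and at 3.14, 2.42, 3.96 and 0.656 FPKM. Control lines 29 and 45 and ICSI line 20 were the 3 highest for each of these genes, and ICSI line 21 was the lowest. Hoxb6 was at 5.79, 2.39, 1.15 and 4.31 FPKM in control lines and at 2.81, 2.22, 5.56 and 0.753 in ICSI lines, again with control line 44 and ICSI line 21 at the bottom. Hoxb7, whose regulatory region is widely used to mark the Wolffian duct and ureteric bud, was at 14.5, 8.41, 9.29 and 11.5 and at 11.1, 11.4, 17.1 and 7.14 FPKM. Here ICSI lines gave both the highest and the lowest value.

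Hoxb8, whose promoter is shown above, was at 12.1, 6.71, 3.52 and 9.65 FPKM in control and, in ICSI lines, at 6.75, 6.19, 13.3 and 2.02 FPKM. Hoxb9, which patterns the thoracic ribs, was at 5.71, 3.10, 1.14 and 4.81 and at 3.21, 3.35, 6.59 and 0.620 FPKM. ICSI line 20 was highest and ICSI line 21 lowest for both, so that the full range was found inside 1 group and 1 name set. Hoxb13, which lies apart from the others and is known from the prostate and the tail tip, was at 4.62, 3.54, 2.09 and 1.89 and at 4.21, 4.90, 2.59 and 2.67 FPKM. Its 4 highest values were those of the set 1 lines, and its groups overlapped. Hoxb1, the tenth gene, had a mean of 0.703 FPKM (range, 0.187 to 1.14), lowest in ICSI line 21 as well.

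Hoxb2 to Hoxb9 were thus high or low together. ICSI line 21 had the lowest value for 8 of the 8 genes, and control line 44 the second lowest for 6. The highest value came from control line 29 for 4 genes and from ICSI line 20 for the other 4. Summed over the 8 genes, the levels were 56.5, 29.5, 23.8 and 45.4 FPKM in control lines and 37.5, 34.1, 57.3 and 16.5 FPKM in ICSI lines, a 3.47-fold range. The range of a single gene was widest for Hoxb9 (10.6-fold), Hoxb6 (7.69-fold), Hoxb8 (6.57-fold) and Hoxb5 (6.05-fold). It was 2.40-fold to 3.54-fold for Hoxb2, Hoxb3, Hoxb4 and Hoxb7. Fewer cells that express these genes and less RNA per cell cannot be told apart in bulk samples.

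**Figure D2:**
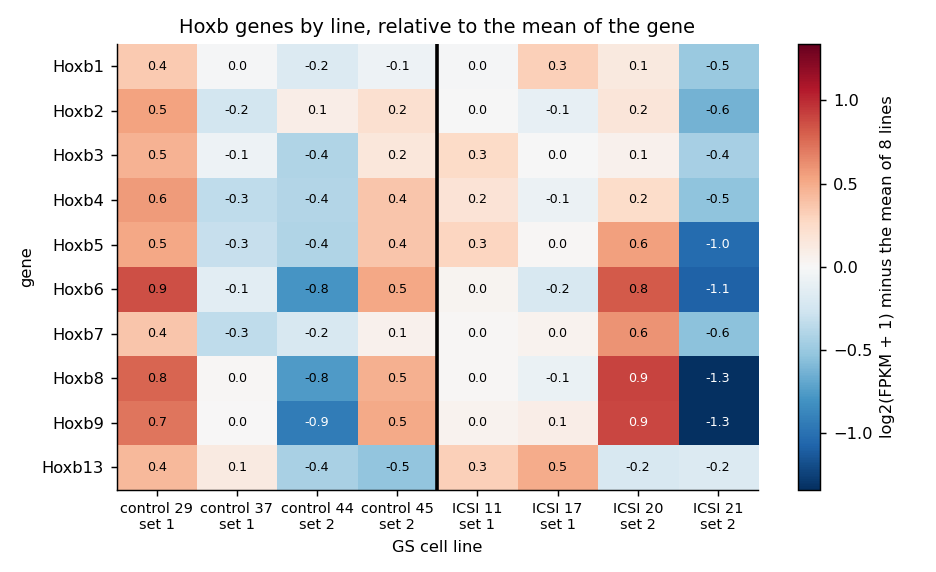
Heat map of the 10 Hoxb genes (rows) in the 8 lines (columns, control-F1 left and ICSI-F1 right of the black line), each cell giving log2(FPKM + 1) minus the mean of that gene over the lines. Control line 29 and ICSI line 20 are red and ICSI line 21 blue from Hoxb2 to Hoxb9, while the Hoxb13 row is red in the 4 set 1 lines and blue in the 4 set 2 lines.

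Pearson's r of log2(FPKM + 1) over the 8 lines lay between 0.71 and 0.99 for the 28 pairs among Hoxb2 to Hoxb9, with a median of 0.87, and Spearman's rho between 0.74 and 0.98. With the mean of each name set removed, r lay between 0.73 and 0.99. Hoxb13 gave r between 0.08 and 0.50 and rho between -0.21 and 0.29 with the same genes. The points are the same 8 libraries throughout, so these values describe them and carry no test. The SD between lines on the log2 scale was taken after additive effects of group and name set were removed. It was 0.87 for Hoxb9, 0.85 for Hoxb8, 0.81 for Hoxb6 and 0.63 for Hoxb5. Those SDs stood at percentiles 99.2, 99.1, 98.9 and 97.4 of the 12000 genes tested. The SD of Hoxb13 was 0.13, at percentile 26.5.

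The comparison of ICSI-F1 with control-F1 lines asks whether birth after sperm injection left a difference in Hox expression. None of the 9 tested Hox genes passed the threshold of 0.05 on the adjusted p (limma, Benjamini-Hochberg over 12000 genes), and neither did any other gene (0%). At an unadjusted limma p under 0.05 there were 0 Hox genes and 55 genes in all. This fit left the name set out, and with the set added as a term there were 0 Hox genes and 140 genes in all. Summed Hoxb2 to Hoxb9 averaged 38.8 ± 14.9 FPKM over the control and 36.4 ± 16.7 FPKM over the ICSI lines (SD, n = 4 per group). Of the 9 genes 2 had a higher and 7 a lower fitted level in ICSI lines, with a median log2 difference of -0.10 against -0.01 over all genes. Without ICSI line 21 the median of the Hox genes was 0.15, and without control line 29 it was 0.07. The groups overlapped for each of the 9, while 0.442% of all genes tested did not overlap.

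The lower genes with the smallest p were Hoxb2, Hoxb8 and Hoxb6. Hoxb2 averaged 2.46 ± 0.770 FPKM over the control and 1.82 ± 0.614 FPKM over the ICSI lines (SD, n = 4 per group), a log2 difference of -0.30 ± 0.21 (SE) with an exact two-sided permutation p of 0.286. Hoxb8 differed by -0.25 ± 0.46 (exact permutation p = 0.686) and Hoxb6 by -0.22 ± 0.44 (exact permutation p = 0.686). The higher genes were Hoxb13, by 0.21 ± 0.25 (exact permutation p = 0.486), and Hoxb7, by 0.06 ± 0.24 (unadjusted limma p = 0.810). Neither the fit nor the permutation took the name set into account. With the set added as a term, the unadjusted limma p of Hoxb13 was 0.100, against 0.433 without it. For Hoxb2 it was 0.204 against 0.199. The smallest p these 70 assignments of lines can give is 0.0286. For Hoxb9 the 95% interval of the difference ran from -1.23 to 0.93, and for Hoxb7 from -0.49 to 0.61. For Hoxb3, Hoxb4, Hoxb5, Hoxb6, Hoxb7, Hoxb8 and Hoxb9 the sign of the difference turned when single lines were left out.

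**Figure D3:**
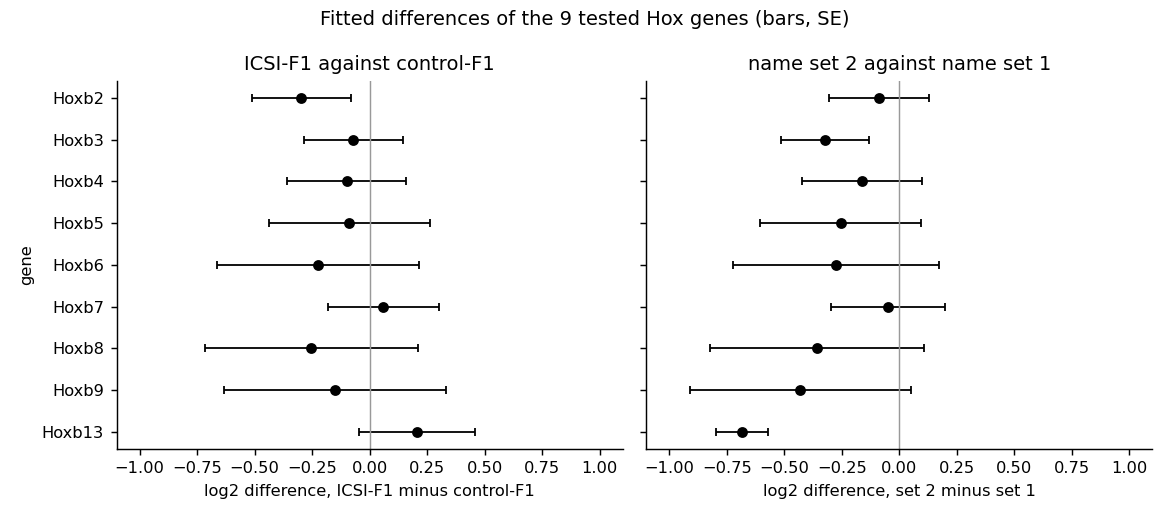
Fitted log2 differences of the 9 tested Hox genes, ICSI-F1 minus control-F1 (left) and set 2 minus set 1 (right), as points with bars of 1 SE from limma on 8 lines. On the left each point lies within 0.30 of 0, with long bars for Hoxb6, Hoxb8 and Hoxb9; on the right Hoxb13 (-0.68) has the shortest bar and lies farthest from 0.

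Within name sets the ICSI difference ran from -0.45 for Hoxb6 to 0.13 for Hoxb13 in set 1, and from -0.39 for Hoxb2 to 0.28 for Hoxb13 in set 2. The difference between these effects was tested as an interaction, and 0 of 9 Hox genes and 0% of all genes passed (limma). It was 0.15 for Hoxb13, 0.46 for Hoxb6 and 0.35 for Hoxb8, with unadjusted limma p-values of 0.560, 0.641 and 0.732. It was -0.19 for Hoxb2, -0.27 for Hoxb5 and -0.07 for Hoxb4, with unadjusted limma p-values of 0.698, 0.723 and 0.902. At an unadjusted limma p under 0.05 there were 0 Hox genes and 147 genes in all.

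Hoxb13 was the 1 tested Hox gene that differed between name sets. It was 4.32 ± 0.592 FPKM in set 1 and 2.31 ± 0.38 FPKM in set 2 (SD, n = 4 each), and the sets did not overlap. The log2 difference was -0.68 ± 0.11 (SE), with a limma adjusted p of 0.0123. Of all 12000 genes tested, 16% differed between the sets and 5.76% were lower in set 2, and 26.8% did not overlap between the sets. Hoxb13 was therefore 1 of many genes that differed in this way. Hoxb3 (-0.32 ± 0.19, limma adjusted p = 0.256) and Hoxb9 (-0.43 ± 0.48, limma adjusted p = 0.552) followed by p and did not pass. All 9 genes had a lower fitted level in set 2, with a median of -0.28 against 0.03 over all genes tested. Without ICSI line 21 the median of the Hox genes was 0.05.

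The 30 Hox genes below 1 FPKM were not in the fit with the stated minimum. They are described from here on, and those named were chosen after their values were seen. Their reads were few. Over all 8 libraries a Hoxa gene had 9 to 338 reads, a Hoxc gene 28 to 652 and a Hoxd gene 15 to 501, against 391 to 4910 for a Hoxb gene. Hoxa5, Hoxa6, Hoxc5, Hoxc12 and Hoxd4 were listed at 0 in at least 1 line. Hoxa6 was at 0 in 4 lines, where a count of 0 allowed, at 3 reads, up to 0.0995 FPKM in ICSI line 21 and more in the 3 other lines at 0. Hoxd3 and Hoxd4 share 62.4% and 52.3% of their exonic bases with genes on the same strand, so their values are uncertain.

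Among the highest of the low genes were Hoxc4 (0.281 to 1.74 FPKM), Hoxc13 (0.494 to 1.78), Hoxd13 (0.210 to 2.16), Hoxd8 (0.319 to 1.09) and Hoxc9 (0.280 to 0.811). Hoxd13, a gene of the digits and genital tubercle, was at 0.684, 0.210, 2.16 and 0.520 FPKM in control lines and at 0.230, 0.486, 1.40 and 0.619 FPKM in ICSI lines. Control line 44 and ICSI line 20 stood above the rest.

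With the minimum lowered to a mean of 0.1 FPKM, 29 Hox genes could be tested. Hoxa4 was the 1 gene of these 29 whose groups did not overlap, where 0.711% of 16889 genes did not. It was at 0.237, 0.101, 0.211 and 0.213 FPKM in control and at 0.477, 0.356, 0.284 and 0.437 FPKM in ICSI lines. These levels rest on 4 to 24 reads per library, and an antisense transcript covers 16.0% of the exonic bases of Hoxa4. The log2 difference was 0.22 ± 0.08 (SE), and the limma adjusted p over 16889 genes was 1.00. The exact permutation p was 0.0286, the smallest possible. Groups of 4 lines that do not overlap always give this value, so it restates how Hoxa4 was chosen and adds no support. The difference did not pass the correction, although each of 4 ICSI lines lay above each of 4 control lines.

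Markers of fibroblasts moved with part of the Hox genes. The summed level of 25 fibroblast markers was 1286, 407, 1067 and 286 FPKM in control lines 29, 37, 44 and 45 and 405, 564, 708 and 453 FPKM in ICSI lines 11, 17, 20 and 21. Of 22 tested markers 21 had a lower fitted level in ICSI lines, with a median log2 difference of -0.26, and 0 passed (limma). The 29 Hoxa, Hoxc and Hoxd genes together were at 11.8, 5.90, 11.5 and 6.35 FPKM and at 7.26, 9.58, 9.75 and 8.27 FPKM. The lines stood in nearly the same order for both sums, with control lines 29 and 44 at the top. Over the 8 lines Pearson's r was 0.92 and Spearman's rho 0.93, and r was 0.93 with the mean of each set removed. Without control lines 29 and 44, the 2 lines farthest from the median of the markers, r was 0.88. By cluster, r with the marker sum was 0.79 for Hoxa, 0.60 for Hoxc and 0.76 for Hoxd over 8 lines, and without those 2 lines it was 0.08, 0.89 and 0.65, so that the value for Hoxa rested on them.

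Hoxb2 to Hoxb9 did not follow that order. Control line 44 combined 1067 FPKM of fibroblast markers with the second lowest sum of these genes, 23.8 FPKM, and control line 45 combined the fewest markers, 286 FPKM, with a sum of 45.4 FPKM. Pearson's r between the sums was 0.30, rho was 0.12, and r was 0.37 without control lines 29 and 44. Of single genes, r of log2 levels with the mean log2 level of the markers was above 0.7 for 4 of 11 Hoxa, 4 of 9 Hoxc, 2 of 9 Hoxd and 0 of 10 Hoxb genes. The medians were 0.46, 0.44, 0.47 and 0.21. Without control lines 29 and 44 the counts were 0 Hoxa, 1 Hoxc (Hoxc10), 0 Hoxd and 0 Hoxb genes, with medians of 0.16, 0.45, 0.0018 and 0.24, so that for single genes the contrast with Hoxb rested largely on those 2 lines. All these values compare sums over the same 8 libraries, the 2 correlations were not tested against each other, and the part of fibroblast RNA in the Hox levels was not tested.

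**Figure D4:**
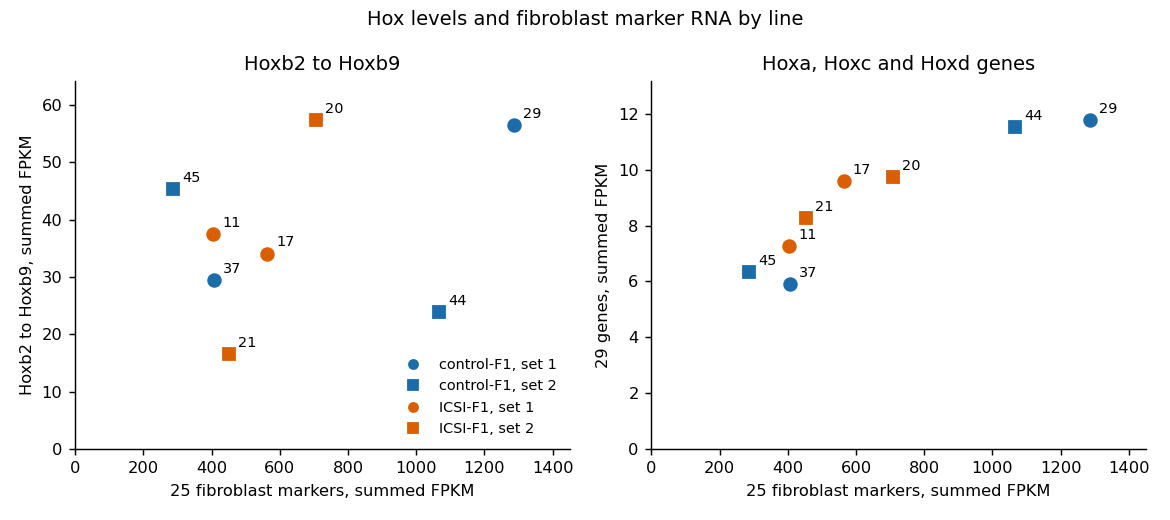
Summed FPKM of Hoxb2 to Hoxb9 (left) and of the 29 Hoxa, Hoxc and Hoxd genes (right) against the summed FPKM of 25 fibroblast markers, with 1 point per line and its number beside it; all axes start at 0. On the right the points climb from lines 45, 11 and 37 to line 29, with line 37 (5.90) lowest. On the left line 44 (23.8) lies low and line 45 (45.4) high.

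The other lists of markers gave ranges that did not set the groups apart. The 22 germ cell markers summed to 1723 to 2422 FPKM in control and, in ICSI lines, 1752 to 2269 FPKM, and 10 of 22 were higher in set 2 (limma), where 10.2% of all genes tested were. Those 10 were Ddx4, Dazl, Dnd1, Sall4, Etv5, Lhx1, Id4, Gfra1, Ret and Pou3f1, with log2 differences from 0.31 for Dnd1 to 1.66 for Lhx1. The 10 Sertoli cell markers summed to 159 to 179 and 139 to 209 FPKM, nearly all of it Dmrt1, which germ cells express too. Between the sets Sox9 was higher in set 2 (1.03 against 3.34 FPKM, limma adjusted p = 0.0242) and Wt1 lower (2.93 against 1.23 FPKM, limma adjusted p = 0.0150). Over all genes tested, 5.76% were lower in set 2. The 9 Leydig and peritubular markers summed to 1.57 to 2.63 and 1.96 to 3.13 FPKM. Xist, the transcript of the inactive X chromosome, was at 0.538 to 1.37 FPKM in set 1 and 0.112 to 0.351 FPKM in set 2, so that it was higher in set 1 as Hoxb13 was. Such a lack of overlap between the sets was found for 26.8% of all genes tested. The part of any of these genes in the difference of Hoxb13 was not tested.

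Noncoding genes of the Hox clusters were as low as most Hox genes. Of 8 in the table, 1 was tested, Halr1, at 1.18 to 2.35 FPKM, and it passed in neither comparison. Hoxb3os, the antisense partner of Hoxb3, was at 0.254 to 1.54 FPKM, with a mean below the minimum for the fit. It was higher in each set 1 line than in any set 2 line, and so was Hotairm1. Among the 12000 genes tested, 26.8% did not overlap between the sets. Hotair and Hottip had 4 and 6 reads over the 8 libraries.

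Genes that flank the clusters were in part far more abundant than the Hox genes beside them. Of 14 neighbors 10 were tested, and Tax1bp1, Cbx5 and Mtx2 led them with means of 33.6, 30.6 and 26.6 FPKM. The homeobox genes Evx1 and Evx2, which border the Hoxa and Hoxd clusters directly, had 12 and 22 reads in all. None passed between ICSI and control lines, and Tax1bp1 alone passed between the sets, higher in set 2 by 0.35 ± 0.10 (SE, limma adjusted p = 0.0437). Over all genes tested, 10.2% were higher in set 2.

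Partners and regulators of Hox proteins were present. Among the TALE cofactors, homeodomain proteins that bind DNA with Hox proteins, Pbx2 was at 24.9 to 39.9 FPKM, Pknox1 at 5.32 to 7.22 and Pbx4 at 1.69 to 4.10. Meis1, Meis2 and Meis3 were at most 0.383 FPKM in any line. Of 4 tested cofactors 0 passed between ICSI and control lines, and Pbx3 was higher in set 2 (1.44 against 2.84 FPKM, limma adjusted p = 0.0272), as were 10.2% of all genes tested. Of the Cdx and other ParaHox genes, 0 of 6 reached the minimum, with Cdx2 highest at 0.251 to 1.63 FPKM. The Cdx genes among them act upstream of Hox genes in the embryo.

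All 22 listed chromatin regulators of Hox clusters were tested. None passed between ICSI and control lines, with a median log2 difference of -0.04. In set 2, 5 of 22 were lower and 0 higher (limma), where 5.76% of all genes tested were lower and 10.2% higher. Those 5 were the Polycomb genes Cbx2 (-0.59 ± 0.13), Cbx7 (-0.79 ± 0.23) and Ezh1 (-0.32 ± 0.09), the Trithorax partner Men1 (-0.36 ± 0.09) and the H3K79 methyltransferase Dot1l (-0.55 ± 0.14), as log2 differences with SE. The most abundant were Kdm6b, Suz12 and Eed, at means of 42.5, 39.1 and 37.7 FPKM.

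The Rhox genes, X-linked homeobox genes of the reproductive tract that lie outside the Hox clusters, were in part more abundant. Of 32 in the table, 11 were tested and 4 were listed at 0 in each line. Rhox13 led at a mean of 27.9 FPKM, followed by Rhox10 at 16.3 and Rhox1 at 15.6, each above Hoxb7 at 11.3 FPKM. None passed between ICSI and control lines. Rhox10 was lower in set 2 (21.4 against 11.2 FPKM, limma adjusted p = 0.0168) and Rhox2f higher (1.11 against 2.20 FPKM, limma adjusted p = 0.0479). Over all genes tested, 5.76% were lower in set 2 and 10.2% higher.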

How the data were processed

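RNA from 8 GS cell lines was sequenced by the authors as single reads. Per the methods, adapters were trimmed with cutadapt, reads were mapped to the mm10 mouse genome with STAR and counted with htseq-count on a GENCODE annotation. The processing notes name STAR 2.7.9a, cutadapt 3.4 and HTSeq 0.13.5 for name set 1 and STAR 2.6.0c, cutadapt 1.16 and HTSeq 0.11.2 for name set 2. The labels and the methods name different library kits, so strandedness is uncertain. The deposited values are FPKM per gene and library. The same table holds the authors' own log2 fold change and adjusted p-value, made with DESeq2, which were not used.

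FPKM values were whole multiples of the value of 1 read, within a tolerance of 0.05 read. This held for 11997 of the 12000 tested genes (99.975%) and for all 39 Hox genes, and gave the reads counted in genes per library. Where the annotated length failed, the smallest exon length that made all lines whole was used. Genes fitted in this way are included in the count. Exon overlaps and positions came from GENCODE M21 (GRCm38, the assembly of mm10), in which 30946 of the 31010 gene identifiers were found, and promoters from RefSeq. limma 3.58.1 in R 4.3.3 (lmFit, eBayes with trend, two-sided) was fitted to log2(FPKM + 1) of genes whose mean reached 1 FPKM, with Benjamini-Hochberg adjustment over all of them and a threshold of 0.05. A pseudocount of 1 understates changes of low genes. The group was the only term for ICSI against control. The fit of name sets kept the group as a term, and an interaction tested whether the ICSI effect differed between sets. Single Hox genes were also tested by exact two-sided permutation of the group labels. The fit was tested on simulated data. Alternatives were a pseudocount of 0.1, a minimum of 0.1 FPKM or none, quantile normalization, TPM rescaling and limma-voom on recovered reads. The set as covariate was tried for ICSI against control only. Each line was also left out in turn, but not for the interaction.

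The values of 1 Hox gene are not reported singly here. The members, gene lists and tests were chosen with earlier results of these data known. Values by line were given for Hox genes whose mean reached 1 FPKM. For each comparison the 3 higher and 3 lower Hox genes with the smallest unadjusted p were named, and from other lists genes past the threshold and the 3 with the highest means could be named.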

Additional observations from a re-analysis of the deposited data

Results flagged for a closer look

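A pair of values stood apart from the other 3 lines of their group by Dixon's criterion for 4 samples. Hoxa3 was at 0.0376 FPKM (7 reads) in ICSI line 20, while the 3 remaining ICSI lines lay between 0.177 and 0.189 FPKM. Hoxa6 was at 0.0406 FPKM in ICSI line 17, which was 1 read, and at 0 in the other ICSI lines. These were 2 of 92 groups of 4 values examined, and chance flags about 1 in 20 groups. Of the 9 tested Hox genes, 0 had ICSI lines all above the control lines in 1 name set and all below them in the other.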

How the results depend on the processing

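No paired analysis was possible because the groups share no replicate numbers. In the comparison of ICSI with control lines, 0 Hox genes passed under each alternative, and 1 gene of any kind passed with no filter on low values. The interaction gave 0 under each alternative run for it, which did not include leaving out lines. Hoxb13 stayed lower in set 2 and past the threshold under each alternative, by -0.61 to -0.98 on the log2 scale, with limma adjusted p-values of 0.0122 to 0.0482. With a minimum mean of 0.1 FPKM, 2 Hox genes differed between sets, and with no filter 3 did, Hoxb13 among them in both cases. The 1917 genes that differed between sets became 1255 with no filter and 204 to 2693 with 1 line left out, the lowest without ICSI line 11 and the highest without ICSI line 21. They became 401 without control lines 29 and 44, an alternative chosen after seeing the data, because those lines had most fibroblast marker RNA. Of the 1917, 64% were higher in set 2, against 50.8% with quantile normalization and 46.9% with limma-voom, so the balance of directions over all genes depended on scaling while that of Hoxb13 did not. The log2 difference between ICSI and control lines changed sign for 7 Hox genes with single lines left out. It ranged from -0.218 to 0.0721 for Hoxb3, -0.248 to 0.0738 for Hoxb4, -0.29 to 0.24 for Hoxb5, -0.53 to 0.10 for Hoxb6, -0.13 to 0.25 for Hoxb7, -0.60 to 0.15 for Hoxb8 and -0.49 to 0.27 for Hoxb9. The extremes came without control line 29 or 44 or ICSI line 20 or 21, and the cause was not tested. The depth left Hox genes below 0.1 FPKM with few reads, and 4 lines per group limit what could be detected.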

Other observations

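Genes that followed the mean log2 level of Hoxb2 to Hoxb9 across the 8 lines were looked for after the pattern was seen. Of 12000 genes, 17 had a Pearson's r above 0.9, of which 6 were these Hoxb genes themselves. With the mean of each name set removed 114 genes did, 7 of them Hoxb genes. Dpp7, which encodes a lysosomal peptidase (r = 0.97), Tma7 (r = 0.95), Alg9, a mannosyltransferase of glycan assembly (r = 0.94), and Sass6, a centriole protein (r = 0.93), were the closest outside the cluster. With 8 lines, 12000 genes and no independent samples these values are a description only.

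T (Brachyury), a mesoderm transcription factor also used as a marker of cultured spermatogonia, was at 2.87, 0.796, 1.60 and 3.16 FPKM in control lines 29, 37, 44 and 45 and at 0.903, 1.21, 1.94 and 1.09 FPKM in ICSI lines 11, 17, 20 and 21. Control lines 29 and 45 and ICSI line 20 were highest, as they were for Hoxb4 and Hoxb5. The lowest value came from control line 37, whereas ICSI line 21 was lowest for Hoxb4 and Hoxb5. T was chosen from the 22 germ cell markers after its values were seen.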
